A study of Arabidopsis thaliana with 4 samples.

Results

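The SnRK2 kinases of Arabidopsis thaliana were followed in the RNA of whole seedlings that overexpressed a small open reading frame, sORF1511. The family was taken by locus identifier: SnRK2.1 (AT5G08590), SnRK2.2 (AT3G50500), SnRK2.3 (AT5G66880), SnRK2.4 (AT1G10940), SnRK2.5 (AT5G63650), SnRK2.6 (AT4G33950), SnRK2.7 (AT4G40010), SnRK2.8 (AT1G78290), SnRK2.9 (AT2G23030) and SnRK2.10 (AT1G60940). All 10 members were found among the 33602 genes of the tables. The study compared the reference accession Col-0, labelled WT, with a sORF1511 overexpressor that the design text calls line 7. Seedlings of both genotypes were collected at 12 das, the age as the labels give it, and each genotype had 2 libraries, each from 5 pooled seedlings. The overexpressor was a single line, and the promoter of the transgene is not given in the sources used here, so an effect of the line and an effect of the transgene cannot be told apart. The sORF1511 transcript was not analysed here.

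SnRK2 proteins are plant-specific serine/threonine kinases that act in responses to abscisate, the hormone of drought and seed dormancy, and to osmotic stress. In the absence of the hormone, clade A PP2C phosphatases hold the abscisate-activated members inactive. Hormone-bound PYR/PYL receptors capture these phosphatases, Raf-like kinases phosphorylate the freed SnRK2s, and the active kinases phosphorylate bZIP transcription factors of the ABF group and ion channels of guard cells. Subgroup I (SnRK2.1, SnRK2.4, SnRK2.5, SnRK2.9 and SnRK2.10) is known for activation by osmotic stress without abscisate, subgroup II (SnRK2.7 and SnRK2.8) for weak activation by abscisate, and subgroup III (SnRK2.2, SnRK2.3 and SnRK2.6) for strong activation by it.

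Totals ran from 13974460 to 25740234 estimated reads per library, and the family held between 2764 and 7738 of them. WT replicate 1 stood apart, with 31.7% of its reads on chloroplast or mitochondrial loci, against 1.02% to 1.47% in the other libraries. Levels between libraries are therefore given as CPM, read counts put on a common scale by TMM, and levels between genes as TPM, which also corrects for transcript length. Values were whole reads within 0.001 for 40 of 40 member values, against 96.9% to 97.3% of all genes. Leaf photosynthesis markers were present in each library (summed level 35720 to 44581 CPM over 4 genes), and so were root endodermis markers (1.61 to 15.8 CPM over 6 genes). Because whole seedlings were pooled, fewer cells of a type and less RNA per cell cannot be told apart.

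Within the family, 4 genes supplied most of the transcripts in every library. SnRK2.1, SnRK2.4, SnRK2.10 and SnRK2.2 together made up between 78.4% and 81.2% of the summed SnRK2 TPM. Averaged over the 4 libraries, SnRK2.1 stood at 47.1 ± 5.99 TPM, SnRK2.4 at 46.3 ± 8.42 TPM, SnRK2.10 at 42.7 ± 10.4 TPM and SnRK2.2 at 34.2 ± 7.25 TPM (SD over 4 libraries). The first places were not separated beyond their spread: SnRK2.1 exceeded SnRK2.4 in both WT libraries and lay below it in both overexpressor libraries, SnRK2.4 exceeded SnRK2.10 in 3 of 4, and SnRK2.10 exceeded SnRK2.2 in 4 of 4 although their ranges overlapped. A middle tier followed with no overlap with SnRK2.2. It held SnRK2.6 at 13.4 ± 2.07 TPM, SnRK2.3 at 12.0 ± 0.615 TPM and SnRK2.8 at 10.7 ± 2.06 TPM (SD over 4 libraries), whose ranges overlapped each other. SnRK2.5 at 2.62 ± 0.707 TPM and SnRK2.7 at 2.03 ± 1.19 TPM came next and overlapped, and SnRK2.9 was the lowest member in each of the 4 libraries at 0.818 ± 0.128 TPM (SD over 4 libraries).

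**Figure D1:**
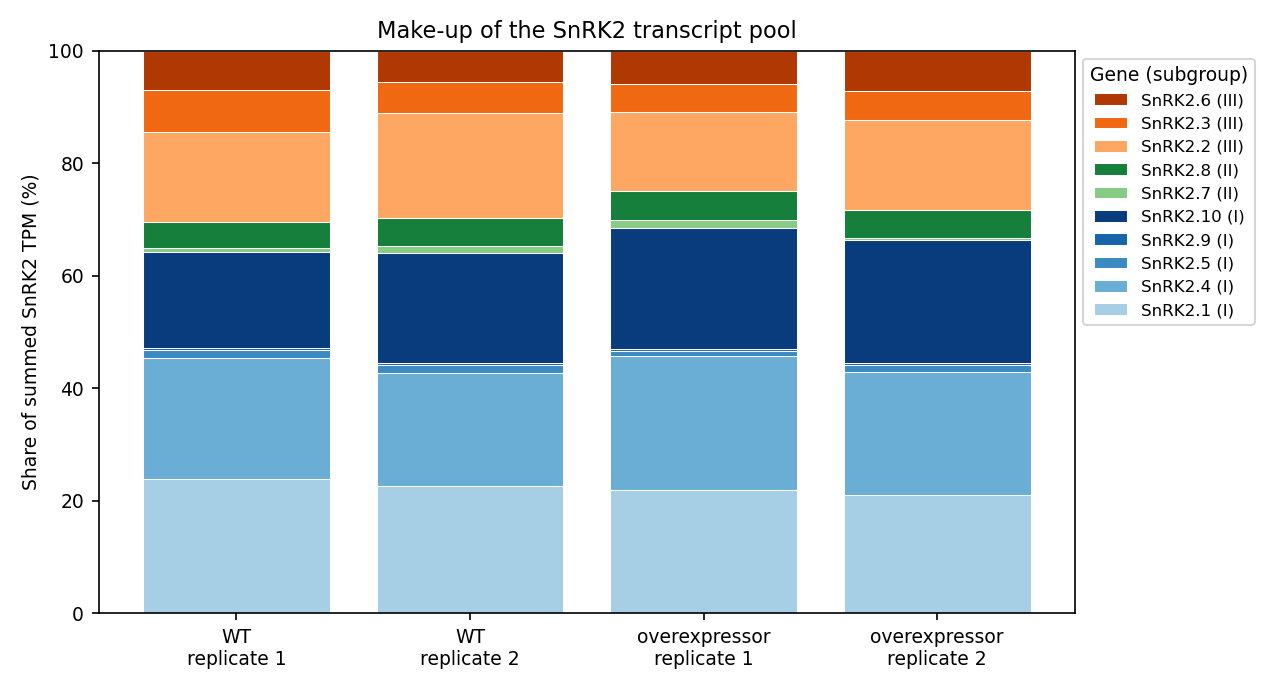
Share of the summed SnRK2 TPM (percent, vertical axis) taken by each member in each of the 4 libraries (horizontal axis), with subgroup I in blue, II in green and III in orange. Subgroup I takes 64.0% to 68.5% of the pool in every library, and subgroup III 24.9% to 30.4%.

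The shares of subgroups I and III in the pool did not overlap between the genotypes, and that of subgroup II did. Subgroup I took 64.2% and 64.0% of the summed TPM in replicates 1 and 2 of WT, against 68.5% and 66.3% in those of the overexpressor. Subgroup III took 30.4% and 29.7% in WT and 24.9% and 28.3% in the overexpressor. These are shares of the pool, not levels. The summed TPM of subgroup III overlapped, at 49.0 and 68.8 in WT and 56.6 and 64.1 in the overexpressor, while that of subgroup I did not, at 104 and 148 in WT and 156 and 151 in the overexpressor. The lowest sum of each was that of WT replicate 1, where the whole family summed to 161 TPM, against 227 to 232 TPM in the other libraries. Subgroup II took 5.38% and 6.36% in WT and 6.64% and 5.39% in the overexpressor. No test was made of these shares, since 2 libraries against 2 cannot give an exact two-sided permutation p below 0.333.

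No SnRK2 gene passed the test between the genotypes. With edgeR (quasi-likelihood, Benjamini-Hochberg over the 19474 genes tested), 0 of 10 members had an adjusted p below 0.05, where 29 of all genes did (0.149%). DESeq2 called 0 of 10, beside 5.12% of all genes. So did limma-trend on log2(TPM + 1) and log2(TPM + 0.1), beside 1.41% and 0.996%. Because limma-voom called 0 of all 19474 genes, its 0 of 10 adds no information on the family. At an unadjusted p below 0.05, 2 members were higher and 0 lower, against 11.9% and 9.81% of all genes tested. The log2 fold changes of overexpressor over WT ran from -0.30 for SnRK2.5 to 0.40 for SnRK2.10, with a median of 0.12 beside -0.01 for all genes tested, and 7 of 10 were above 0, against 48.5% of all genes. With scaling by library size only, which moved the median of all genes to 0.10, 8 of 10 were above 0. For 7 of 10 members the 95% interval of the fold change lay within 2-fold in either direction, as it did for 69.6% of all genes. The exceptions were the members with the fewest reads, SnRK2.5, SnRK2.7 and SnRK2.9.

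**Figure D2:**
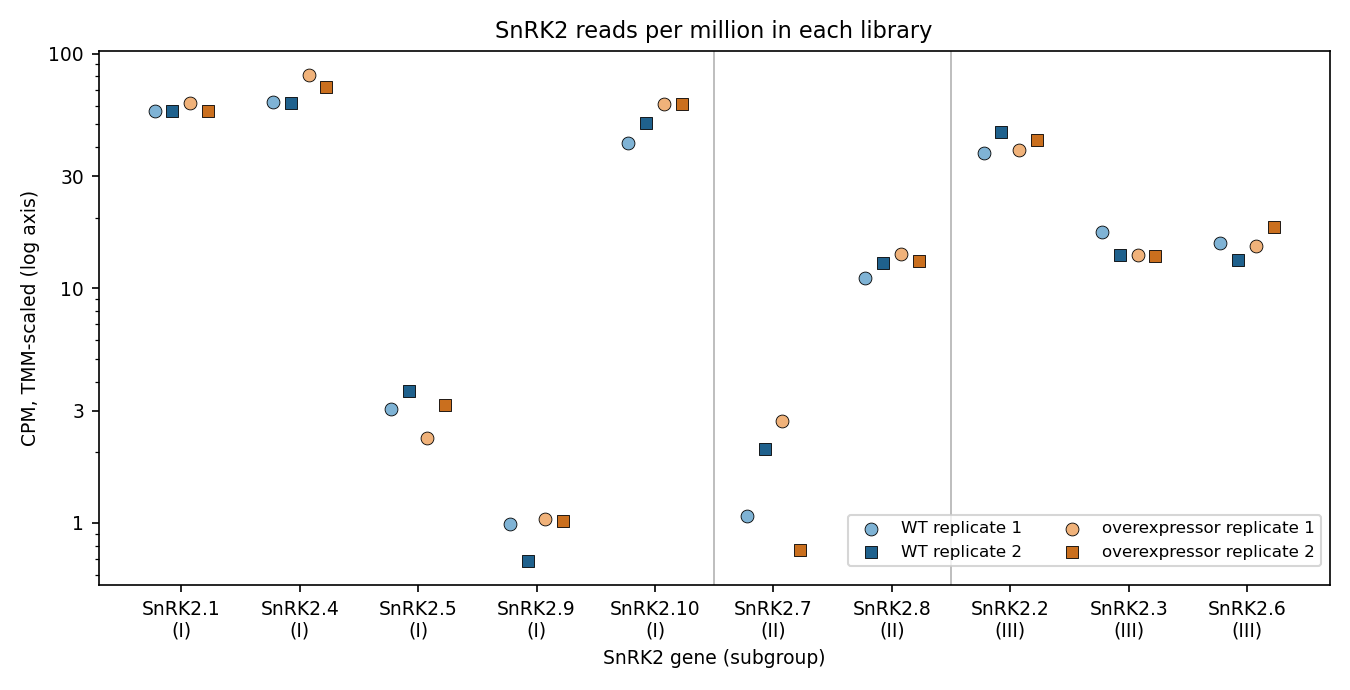
TMM-scaled CPM (vertical log axis) of each SnRK2 gene (horizontal axis, ordered by subgroup), 1 point per library. In SnRK2.4, SnRK2.8, SnRK2.9 and SnRK2.10 both overexpressor points lie above both WT points, as for 28.7% of all genes tested. In SnRK2.7 the points of each genotype are spread widely.

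SnRK2.10 and SnRK2.4, kinases of subgroup I known for binding phosphatidic acid and for a part in root growth under salt, were the members with the smallest p. SnRK2.10 was measured at 41.5 and 50.8 CPM in replicates 1 and 2 of WT, against 61.2 and 60.7 CPM in those of the overexpressor. Both overexpressor libraries were above both WT libraries, and WT replicate 1 was the lowest. Its log2 fold change was 0.40 ± 0.12 (SE), a fold of 1.32 with a 95% interval of 1.06 to 1.64, at an edgeR p of 0.0217, or 0.174 once adjusted. SnRK2.4 was measured at 62.0 and 61.7 CPM in the WT pools, against 80.9 and 71.8 CPM in the overexpressor pools. Its WT libraries were nearly equal, and overexpressor replicate 1 was the highest of the 4. The log2 fold change was 0.30 ± 0.10 (SE), a fold of 1.23 with a 95% interval of 1.04 to 1.47, at an edgeR p of 0.0248, or 0.181 once adjusted. Without WT replicate 1, the library with many organelle reads, the log2 fold changes were 0.27 for SnRK2.10 and 0.31 for SnRK2.4. Without WT replicate 2 they were 0.55 and 0.30. Each of these fits keeps 1 WT library, so only the effect sizes are given here. In the alternatives that kept all 4 libraries, 0 of 10 members passed. The adjusted p of SnRK2.10 in those ranged from 0.129 (DESeq2) to 0.838 (edgeR with library size only).

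The other members of subgroup I covered very different levels. SnRK2.1, which like other subgroup I kinases acts on the mRNA decapping machinery, was the steadiest of the abundant members, with 57.0 and 57.1 CPM in the WT pools, against 61.3 and 57.0 CPM in the overexpressor pools. The groups overlapped, and the log2 fold change was 0.05 ± 0.09 (SE) with a fold interval of 0.887 to 1.21. SnRK2.5 had 3.04 and 3.65 CPM in the WT pools, against 2.29 and 3.17 CPM in the overexpressor pools, from 34 to 101 reads per library. Overexpressor replicate 1 was the lowest, the groups overlapped, and the log2 fold change was -0.30 ± 0.28 (SE). SnRK2.9, known as the member that osmotic stress does not activate, had 11 and 19 reads in the WT pools, against 20 and 28 in the overexpressor pools. The 11 reads of WT replicate 1 carry an exact 95% Poisson interval of 5.49 to 19.7 reads, which covers counting error only. Scaled, SnRK2.9 stood at 0.984 and 0.687 CPM in the WT pools, against 1.04 and 1.02 CPM in the overexpressor pools. The genotypes did not overlap, but the fold interval of 0.644 to 2.52 spanned both directions.

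Subgroup III, whose members carry most of the abscisate response, showed differences in both directions and overlap between genotypes in each gene. SnRK2.6, also named OST1 for the open stomata of its mutant, drives stomatal closure in guard cells. It was measured at 15.6 and 13.2 CPM in the WT pools, against 15.1 and 18.2 CPM in the overexpressor pools, with a log2 fold change of 0.22 ± 0.16 (SE) and a fold interval of 0.875 to 1.54. Overexpressor replicate 2 was the highest and WT replicate 2 the lowest. SnRK2.2 and SnRK2.3, which act together in seed dormancy, germination and root growth, had log2 fold changes of -0.04 ± 0.13 and -0.17 ± 0.15 (SE). The sign of SnRK2.2 depended on the processing, at 0.056 with scaling by library size only. That of SnRK2.3 changed only when WT replicate 1 was left out, to 0.0069. SnRK2.2 stood at 37.6 and 46.2 CPM in the WT pools, against 38.7 and 42.7 CPM in the overexpressor pools, so that the WT libraries enclosed both overexpressor libraries. SnRK2.3 stood at 17.3 and 13.8 CPM in the WT pools, against 13.8 and 13.7 CPM in the overexpressor pools. WT replicate 1 was high and the other 3 libraries were nearly equal. Guard cell markers summed to 52.0 and 60.4 CPM in the WT pools, against 60.2 and 50.0 CPM in the overexpressor pools over 6 genes, none at 0 in any library, so those sums overlapped as the SnRK2.6 values did.

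The ratio of SnRK2.6 to SnRK2.3 within a library was 0.944 and 1.01 in WT and 1.16 and 1.39 in the overexpressor, on the TPM scale. These ratios did not overlap between the genotypes. It was 1 of 5 within-family ratios computed, and the other 4 overlapped. The ratio of SnRK2.2 to SnRK2.3 overlapped, at 2.15 and 3.34 in WT and 2.78 and 3.09 in the overexpressor. SnRK2.10 over SnRK2.4 gave 0.793 and 0.968 in WT and 0.896 and 1.001 in the overexpressor, SnRK2.1 over SnRK2.5 gave 17.8 and 14.8 against 25.3 and 17.0, and SnRK2.8 over SnRK2.7 gave 7.02 and 4.24 against 3.61 and 11.8. No test was made of these ratios, for the reason given for the shares.

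Subgroup II held the least reproducible member. SnRK2.7, which with SnRK2.8 is known for regulating drought-responsive genes, had 12 and 57 reads in the WT pools, against 52 and 21 in the overexpressor pools. This corresponds to 1.07 and 2.06 CPM in the WT pools, against 2.71 and 0.766 CPM in the overexpressor pools, so the overexpressor pools held the highest and the lowest value of the 4. Its log2 fold change was 0.06 ± 0.68 (SE), with a fold interval of 0.313 to 3.49, and it became -1.07 without overexpressor replicate 1 and 0.74 without overexpressor replicate 2. SnRK2.8, also known to phosphorylate the immune coactivator NPR1, stood at 10.998 and 12.8 CPM in the WT pools, against 14.0 and 13.1 CPM in the overexpressor pools. The genotypes did not overlap, and the log2 fold change was 0.18 ± 0.14 (SE) with a fold interval of 0.881 to 1.45. In all, 4 of 10 members were higher in both overexpressor libraries than in both WT libraries and 0 lower, against 28.7% and 28.4% of all genes tested.

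**Figure D3:**
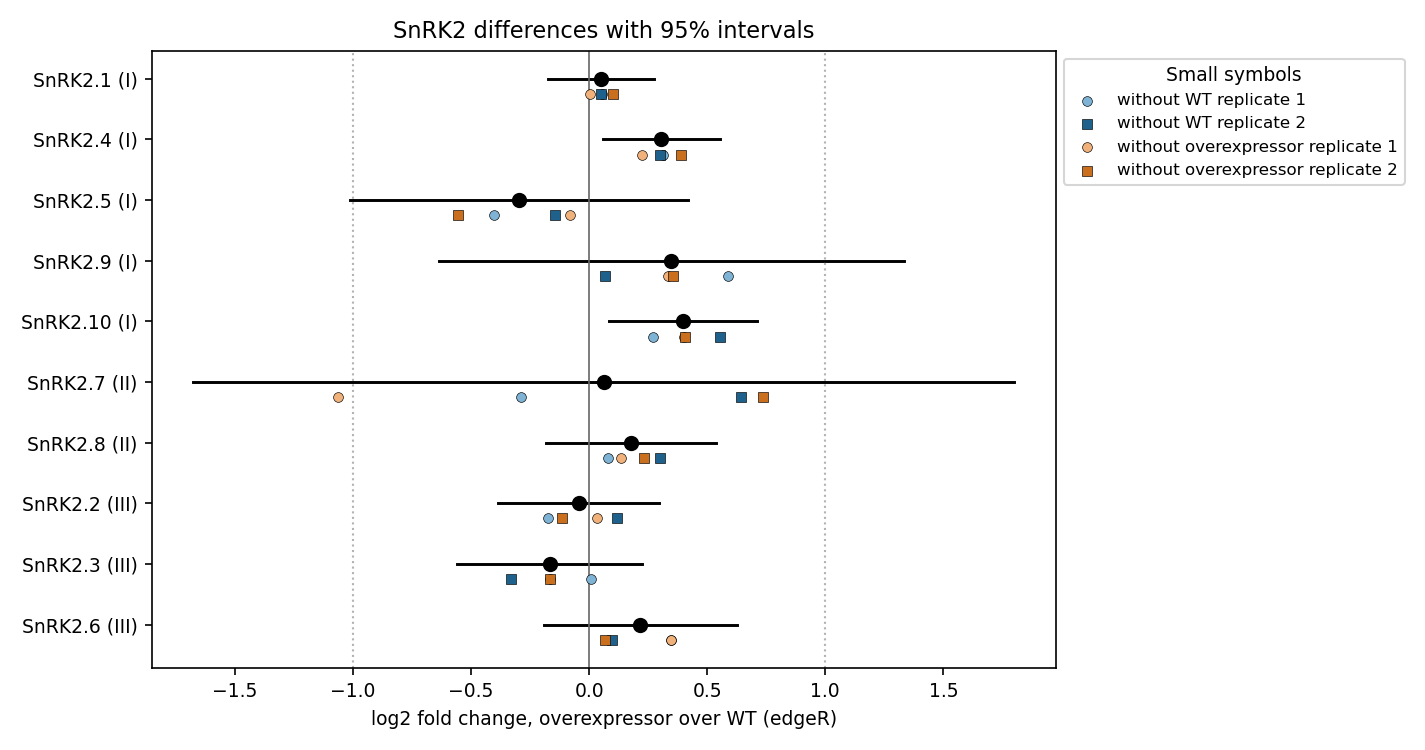
Log2 fold change of overexpressor over WT (horizontal axis) for each SnRK2 gene (vertical axis). Large black points and bars are edgeR's estimate and its 95% interval, small symbols the estimate without 1 library, and dotted lines mark a change of 2-fold; SnRK2.7 moves from -1.07 to 0.74 with the library left out, while SnRK2.1 stays between 0.01 and 0.10.

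The tables also gave a mean transcript length per gene and library, which can move only where a gene has several transcripts. It was the same in all 4 libraries for 5 of 10 members and moved by 10 bases or more for 3. SnRK2.8 had a mean length of 1464.9 and 1472.6 bases in WT and 1445.5 and 1449.9 bases in the overexpressor, shorter in both overexpressor libraries. Among the 2598 nuclear genes whose length moved that far, 31.3% were likewise shorter in both. SnRK2.6 ranged from 1391.1 to 1409.5 bases and SnRK2.10 from 1520.3 to 1531.1 bases, with overlap between the genotypes. The transcripts behind these means are not named in the gene-level tables. With effective length as an offset, the log2 fold change of SnRK2.8 was 0.20 in place of 0.18.

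The partners of the kinases were read in the same fit. The clade A PP2C phosphatases, which inactivate SnRK2s, were higher in both overexpressor libraries for 9 of 9 genes, beside 28.7% of all genes tested. Of these genes 2, ABI2 and AHG1, rose at an adjusted p below 0.05 (background 0.139% of all genes tested). The median log2 fold change was 1.77. For AHG1 and HAI3, being tested at all depended on the overexpressor libraries, so their parts in these counts and in the median are no separate support. ABI2, a negative regulator of abscisate signalling, stood at 10.2 and 12.2 CPM in the WT pools, against 35.3 and 41.6 CPM in the overexpressor pools, with a log2 fold change of 1.77 ± 0.15 (SE). AHG1, a phosphatase known from seed germination, had 1 and 7 reads in the WT pools, against 124 and 162 in the overexpressor pools. WT replicate 1 was thus under the floor of 3 reads, and AHG1 passed the filter on low counts only through the overexpressor libraries, so its fitted fold change is not given. The same holds for HAI3, with 0 and 10 reads in the WT pools, against 52 and 76 in the overexpressor pools. The adjusted p from edgeR was 0.0483 for ABI2 and for AHG1, and 0.120 for HAI3, which did not pass. ABI1, HAB1 and HAI1 had log2 fold changes of 1.47 ± 0.14, 1.23 ± 0.12 and 3.93 ± 0.43 (SE), and edgeR's adjusted p for them was 0.0518, 0.0518 and 0.0564. The number called depended on the method, for all genes as for these. DESeq2 called 8 of 9 phosphatases, beside 5.12% of all genes, and limma-voom called 0 genes of the whole set. Without WT replicate 1 or 2, the median log2 fold change of the phosphatases was 1.67 or 1.92. Without overexpressor replicate 1 or 2 it was 1.90 or 1.65. Between the WT pools all 9 were higher in replicate 2, by a median of 0.46 on the log2 scale. Of all 19474 genes tested 10084 were higher there, with a median of 0.01.

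Set against the subgroup III kinases they act on, the phosphatase transcripts gave a higher ratio in both overexpressor libraries than in either WT library. The summed TPM of the 9 phosphatases divided by that of SnRK2.2, SnRK2.3 and SnRK2.6 was 1.26 and 1.62 in replicates 1 and 2 of WT, against 4.48 and 4.21 in those of the overexpressor. The receptors gave no such separation. Their summed TPM divided by that of the subgroup III kinases was 3.23 and 3.47 in WT and 3.71 and 3.12 in the overexpressor. These ratios compare transcripts within a library and were not tested.

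Of 14 PYR/PYL receptors 9 had enough reads for a test, and 0 passed, with 0 higher and 1 lower at an unadjusted p below 0.05 (beside 11.9% and 9.81% of all genes tested) and a median log2 fold change of -0.12. The receptors with the smallest p were PYL1 at -0.24 ± 0.09, PYL5 at 0.52 ± 0.25 and PYR1 at 0.34 ± 0.23 (log2 fold change ± SE). Among the Raf-like kinases that can activate SnRK2s, 18 of 19 genes were tested and 0 passed, with 1 higher and 0 lower at an unadjusted p below 0.05 (beside the same 11.9% and 9.81%) and a median of -0.05. That gene, AT4G23050, annotated as a kinase with a PAS domain, stood at 12.5 and 18.2 CPM in the WT pools, against 33.2 and 34.5 CPM in the overexpressor pools. Its log2 fold change was 1.13 ± 0.19 (SE), at an adjusted p of 0.0938 from edgeR. The kinases next in order were RAF11, at -0.27 ± 0.11, and AT3G06620, at 0.29 ± 0.13 (log2 fold change ± SE). DESeq2 called 0 of 13 receptors and 1 of 19 Raf-like kinases, beside 5.12% of all genes.

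Of 20 substrates and partners of SnRK2s, 0 passed, with 4 higher and 1 lower at an unadjusted p below 0.05, where 11.9% and 9.81% of all genes tested were, and a median log2 fold change of 0.04. The bZIP factor ABF4, a direct substrate that binds abscisate-responsive promoters, differed between WT pools at 19.0 and 21.5 CPM and overexpressor pools at 27.8 and 29.4 CPM. It had a log2 fold change of 0.50 ± 0.12 (SE), while the F-box gene PP2-B11, whose product targets SnRK2.3 for degradation, had one of 0.95 ± 0.25 (SE). ABF2, another bZIP substrate, had one of 0.69 ± 0.19 (SE). The adjusted p of these 3 genes from edgeR were 0.128, 0.150 and 0.156. DESeq2 called 1 of the 20 genes of this list, beside 5.12% of all genes.

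**Figure D4:**
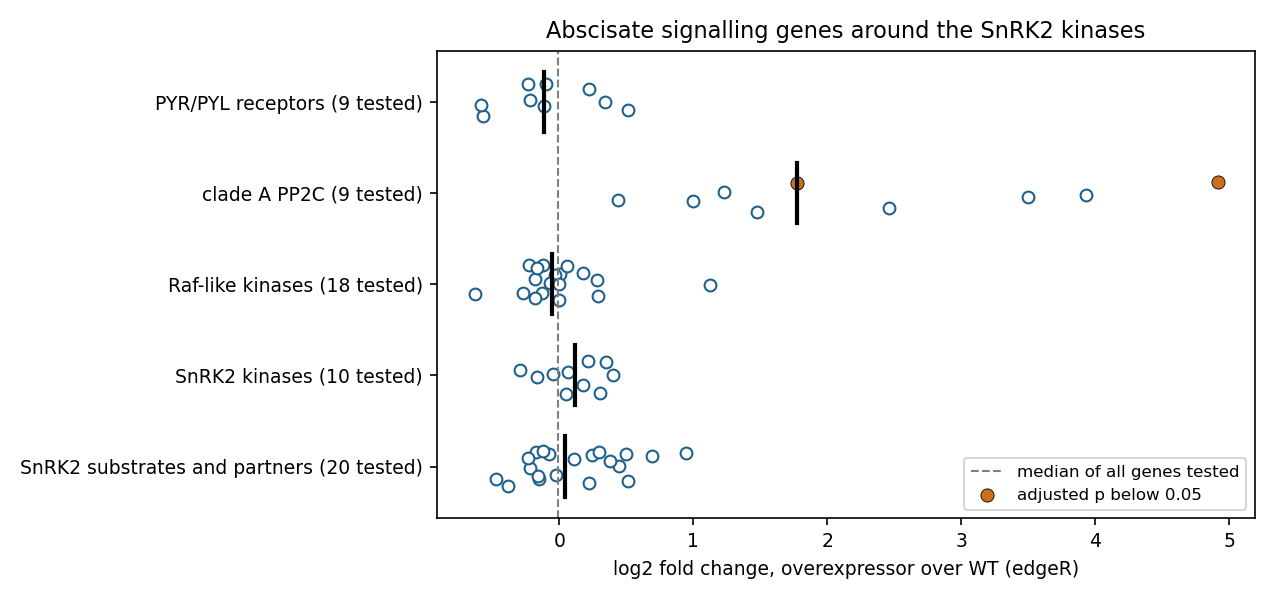
Log2 fold change of overexpressor over WT (horizontal axis) for each tested gene of 5 lists of abscisate signalling genes (vertical axis); filled points passed at an adjusted p below 0.05, black bars are list medians and the dashed line is the median of all genes tested. The phosphatases lie at a median of 1.77, the SnRK2 kinases at 0.12 and the receptors at -0.12.

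None of the tissue marker genes tested passed in edgeR (0 in either direction, smallest adjusted p 0.0814). At an unadjusted p below 0.05, 2 of 3 tested root endodermis genes were lower and the 1 tested seed gene higher. Of all genes tested, 9.81% were lower and 11.9% higher. The endodermis gene CASP4 passed the filter on low counts only through the WT libraries. The seed gene EM6, with 0 and 58 reads in WT, could not pass it on the WT libraries alone. Their being tested thus depended on the direction found. Among guard cell, phloem and leaf genes, 0 had an unadjusted p below 0.05. All 4 leaf genes were higher in both overexpressor libraries than in both WT libraries, with log2 fold changes of 0.23 to 0.28. By the same measure 1 of 6 guard cell genes was higher and 1 lower, and 0 and 1 of 2 phloem genes. Of all genes tested, 28.7% were higher and 28.4% lower by it. None of the 4 root hair genes passed the filter on low counts. COBL9, EXP7 and EXP18 had 1, 3 and 0 reads in WT replicate 1, against 58, 71 and 77 in WT replicate 2. Root endodermis markers summed to 7.15 and 15.8 CPM in the WT pools, against 1.61 and 2.19 CPM in the overexpressor pools, with 1 of 6 genes at 0 reads in each library but WT replicate 2. Leaf photosynthesis markers summed to 35720 and 36284 CPM in the WT pools, against 44581 and 41230 CPM in the overexpressor pools over 4 genes, none at 0. Seed markers summed to 0 and 2.098 CPM in the WT pools, against 19.8 and 21.9 CPM in the overexpressor pools, with 3 and 2 of 3 genes at 0 in WT and 0 in the overexpressor. Most of that sum was 1 gene, EM6, at 18.3 and 21.7 CPM in the overexpressor pools, where EM1 had 28 and 3 reads and CRA1 1 and 2. Root hair markers summed to 0.715 and 7.96 CPM in the WT pools, against 0.208 and 0.547 CPM in the overexpressor pools over 4 genes, with 1 gene at 0 in WT replicate 1. Phloem companion cell markers summed to 107 and 143 CPM in the WT pools, against 108 and 104 CPM in the overexpressor pools, with both genes read in every library. The part of these differences in the SnRK2.4 and SnRK2.10 values, or in the phosphatase and ABF values, was not tested.

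The pattern of SnRK2.10 over the 4 libraries was shared by many genes. By the root mean square distance of library-centred log2 CPM, the nearest were AT3G43230, a zinc finger gene, AT5G52840, an NADH-ubiquinone oxidoreductase-like gene, and WEB1, a gene of chloroplast movement under blue light. Their distances were between 0.00932 and 0.0101 on the log2 scale over 4 libraries, and 202 of 18150 candidate genes lay within 0.05. AT5G52840 stood at 81.3 and 99.8 CPM in the WT pools, against 119 and 120 CPM in the overexpressor pools.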

How the data were processed

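RNA from 200 ng per sample was sequenced as stranded, poly(A)-enriched libraries, per the labels' protocols. Per the file headers, the authors deposited 1 table per library with TPM, estimated counts and mean and effective transcript lengths of 33602 genes; the deposited TPM has a constant total per library. Quantifier, genome build and gene models: not given in the sources used here. DESeq2 is the tool named, with no version, per the submitters' processing notes. Gene lengths of the reference at hand (TAIR10.1) differed from the deposited ones, so it served for names only (32835 of 33602 identifiers matched) and no sequence or coordinate is printed.

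After rounding, estimated counts went into edgeR 4.0.16 under R 4.3.3, with filterByExpr (minimum count 10, total 15), TMM, glmQLFit, glmQLFTest, Benjamini-Hochberg over 19474 genes; all 10 members passed the filter. The SE is the unshrunk log2 coefficient over the square root of F. The 95% interval uses edgeR's total degrees of freedom, residual plus prior. At the floor of 3 reads the level was 0.108 to 0.268 CPM. Replicates are called biological by the labels. Alternatives used DESeq2 1.42.0, limma 3.58.1, other scalings and filters, effective length, the replicate number as a block, and each library left out, with the gene set kept. Members, lists and tests were chosen with earlier results of these data known. Named genes were all members, every list gene that passed, and the 3 of each list with the smallest p after these, plus the 3 nearest in pattern to the SnRK2 gene of smallest p.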

Additional observations from a re-analysis of the deposited data

How the results depend on the processing

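Over 15 alternatives, 139 of 150 member log2 fold changes kept their direction and stayed short of the threshold, and 10 changed sign. The remaining 1 was SnRK2.10 without WT replicate 2, at 0.55. That fit keeps 1 WT library, so only its effect size is given. SnRK2.2 turned to 0.056 with scaling by library size only and to 0.030 and 0.031 with limma-trend on log2(TPM + 1) and log2(TPM + 0.1), and ranged from -0.18 to 0.12 with 1 library left out. SnRK2.3 ranged from -0.33 to 0.0069 with 1 library left out. SnRK2.7 turned to -0.37 with limma-voom and -0.13 under the replicate block, and ranged from -1.07 to 0.74 with 1 library left out. The cause was not tested. Scaling by library size only moved the median of all genes from -0.01 to 0.10 on the log2 scale.

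Genes past the threshold numbered 29 in all, and 809 (570 higher, 239 lower) with library size only, 362 with no low-count filter, 75 with at least 1 CPM in 2 libraries, 0 with limma-voom, 274 and 194 with limma-trend on log2(TPM + 1) and log2(TPM + 0.1), 1225 with DESeq2, 184 without organelle genes and 0 to 2167 with 1 library left out. Under the replicate block 372 genes, 6 phosphatases and 0 SnRK2 genes passed; same-numbered libraries deviated together with a correlation of only 0.058 across genes, so the numbers were not taken as pairs. SnRK2 genes past the threshold numbered 0 to 1 with 1 library left out and 0 otherwise. The 2 phosphatases became 7 with library size only, 7 with no filter, 5 with at least 1 CPM, 0 with limma-voom, 6 with limma-trend on log2(TPM + 1), 8 with DESeq2, 5 without organelle genes and 0 to 9 with 1 library left out. The 0 Raf-like kinases became 1 with library size only, with no filter and with DESeq2, and 0 to 2 with 1 library left out; receptors 0 to 1 and substrates 0 to 6 in that case, and 1 substrate with DESeq2. With 1 library left out, the lone library is assumed to vary like the other genotype. Shares of the family pool computed from reads over effective length are bound to equal the TPM shares, since TPM is built from these. That alternative therefore adds no information. Few reads limit SnRK2.5, SnRK2.7 and SnRK2.9.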
